A study of Mus musculus and Rattus norvegicus with 85 samples.

Results

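Female rats that breathed chloroprene at 200 ppm for 5 exposure days were compared with female rats that breathed it at 5 ppm for the same 5 days, by the messenger RNA of their lungs. The comparison holds 10 of the 85 arrays of the series and 2 of its 8 rat groups. Its members were taken from the sample titles, which give the concentration, the time and the animal: rats 265 to 269 at 200 ppm and rats 217 and 219 to 222 at 5 ppm. The strain is written F334/NCrl in the sample characteristics and F344/NCrl in the study's design text. All 10 animals were adult females, 10 weeks old when exposure began, and were exposed by whole-body inhalation with air as the vehicle, for 6 hours a day on 5 days of the week. RNA from right lung tissue kept in RNAlater was extracted with Trizol, cleaned on Qiagen RNeasy columns, labelled with biotin and hybridised to Affymetrix Rat230_2 arrays, 1 array per animal. Rats exposed to air alone were not analysed here, so every change below is one between a high and a low concentration, and what 5 ppm itself changed was not measured. The other rat groups, at 30 and 90 ppm for 5 days and at all 4 concentrations for 15 exposure days, entered the fit to estimate the spread between animals and serve as comparisons where named.

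Chloroprene is a chlorinated diene used to make synthetic rubber. Cytochrome P450 enzymes, which are abundant in the club cells of the airway, oxidise it to reactive epoxides, and epoxide hydrolase and conjugation with glutathione remove these. Loss of glutathione and attack by electrophiles free the transcription factor NRF2 from its inhibitor KEAP1, and NRF2 then switches on genes of glutathione synthesis, glutathione transferases and quinone and aldehyde reductases.

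The 10 arrays were not alike in ways the concentrations alone describe. The optical density at 260 nm given in the labels for each RNA extract (OD260) was 5.13 ± 1.26 (SD, n = 5) at 200 ppm and 2.02 ± 1.29 (SD, n = 5) at 5 ppm (exact permutation test, two-sided p = 0.0238, adjusted p = 0.0794 over 5 measures of array and RNA quality). Rat 222 of the 5 ppm group had an OD260 of 4.244, above rats 267 and 268 of the 200 ppm group at 3.698 and 3.864, while the other four 5 ppm extracts lay between 1.014 and 1.864. RNA integrity numbers did not differ detectably, at 7.78 ± 0.70 (SD, n = 4, rat 269 having none) and 8.02 ± 0.54 (SD, n = 5; exact permutation test, p = 0.579). A between-array score, the main axis along which rats of the other 6 rat groups differ from their own group means, was 0.76 ± 0.30 (SD, n = 5) at 200 ppm and -0.34 ± 1.01 (SD, n = 5) at 5 ppm (exact permutation test, p = 0.0317, adjusted p = 0.0794). Rat 217 had the lowest score of the 10 rats, -1.86, and rat 222, at 0.87, lay within the 200 ppm range of 0.24 to 1.02. The smallest p these permutation tests allow is 0.00794 with 5 rats in each group, and 0.0159 for the RNA integrity number with 4 against 5. Most named genes whose call was lost when 1 of the 10 rats was left out are marked below with those rats, though not every such loss is. The number of named genes that lost the call ran from 1 without rat 222 to 16 without rat 217.

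Of 11010 genes tested, 3992 (36.3%) differed between 200 and 5 ppm at an adjusted p under 0.05 (limma, Benjamini-Hochberg), 515 (4.68%) higher and 3477 (31.6%) lower at 200 ppm. Most of these differences were small: the median change was 0.50 on the log2 scale among the genes called higher and -0.35 among those called lower, and 387 genes (3.51%) passed the test with a change of at least 1.5-fold, 211 of them higher and 176 lower. All 5 rats at 200 ppm lay above all 5 at 5 ppm for 241 genes (2.19%) and below them for 1489 (13.5%). The median change of all genes tested was -0.14, so the surplus of lower calls depends on where the arrays are centred: with each array centred on the median of the genes tested, 2207 genes were called, 801 higher and 1406 lower (36.3% higher, against 12.9% as deposited). The count also followed single animals. It was 1389 without rat 217, 5581 without rat 222 and 2661 without rat 266 of the 200 ppm group. With OD260 as a covariate it was 9, all higher at 200 ppm: Gclc, Gclm, Gsta1, Gsta3, Akr1b8, Pir, Nqo1, Srxn1 and Txnrd1. OD260 averaged 5.13 at 200 ppm and 2.02 at 5 ppm, so OD260 and concentration cannot be told apart well here. A call lost with that covariate, here or below, does not show which of them the gene followed. The plot of genes called under each setting shows these counts. For the gene lists below, each of the 10 rats was also left out in turn, and counts of 3 or more that moved by over 1.5 times are given without each rat that moved them.

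**Figure D1:**
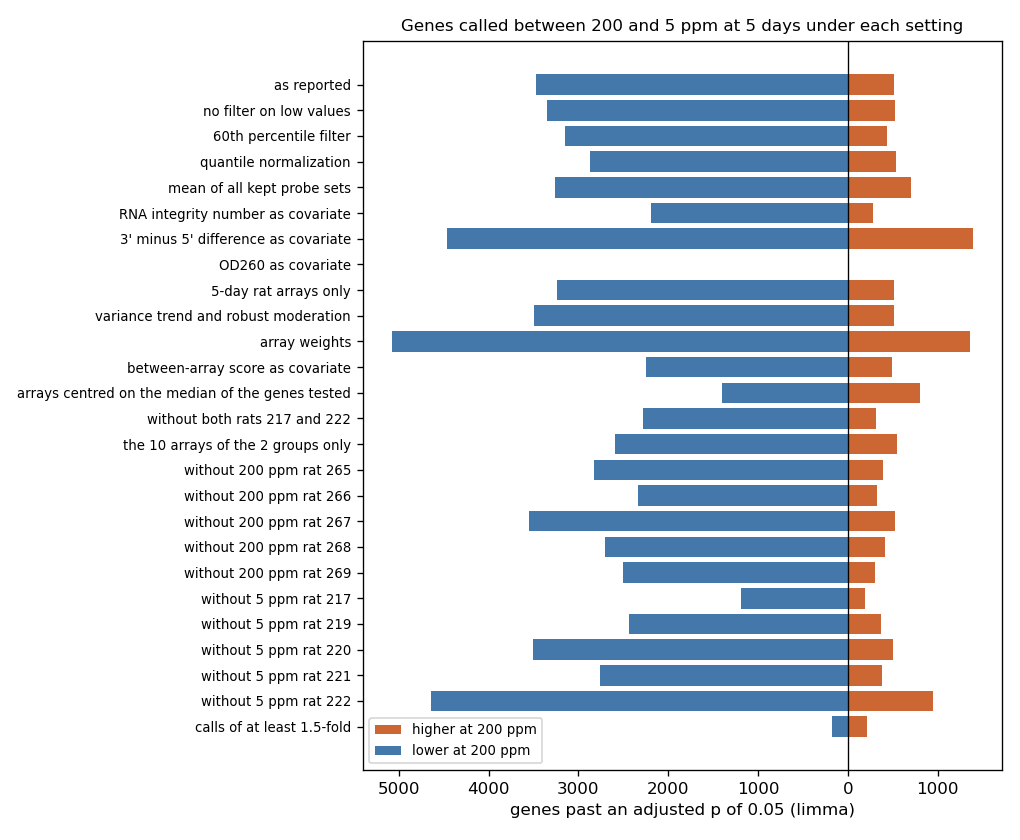
Genes past an adjusted p of 0.05 (limma) between 200 and 5 ppm at 5 exposure days, higher to the right and lower to the left, for the fit as reported and for each alternative. The fit as reported has 515 higher and 3477 lower. Totals run from 9 higher and 0 lower with OD260 as a covariate to 1356 higher and 5078 lower with array weights.

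Genes of glutathione synthesis and of the NRF2 response rose at 200 ppm. Of 30 NRF2 target genes tested, 13 rose and 0 fell, where 4.68% of all genes rose and 31.6% fell, and the median change of the 30 was 0.20 against -0.14 for all genes. Gclc, the catalytic subunit of glutamate-cysteine ligase and the rate-limiting enzyme of glutathione synthesis, had a log2 signal of 8.62, 8.66, 8.66, 8.80 and 8.69 in rats 217 and 219 to 222 at 5 ppm. In rats 265 to 269 at 200 ppm it stood at 9.40, 9.39, 9.46, 9.41 and 9.51. The groups were separated by more than the range within either, and the change was 0.75 ± 0.08 on the log2 scale (SE; 1.68-fold; limma adjusted p = 1.72e-06). Gclm, the modifier subunit of the same enzyme, was at 8.68, 8.49, 8.37, 8.40 and 8.23 at 5 ppm and at 8.78, 8.91, 8.97, 8.98 and 8.79 at 200 ppm. It rose by 0.45 ± 0.10 (SE; adjusted p = 0.00136) with no overlap, although rat 217 lay close to the 200 ppm group.

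Among the glutathione transferases, which join glutathione to electrophiles, Gsta3 changed most. Its log2 signal was 7.07, 7.07, 7.33, 6.88 and 7.28 at 5 ppm and 8.60, 8.46, 8.55, 8.25 and 8.71 at 200 ppm. All 5 exposed rats of the high group stood clear of the low group, and Gsta3 rose by 1.39 ± 0.17 on the log2 scale (SE; 2.62-fold; limma adjusted p = 4.52e-06). Gsta1, another alpha class transferase, went from 12.23 ± 0.08 to 12.74 ± 0.06 (SD, n = 5 each), a rise of 0.51 ± 0.07 (SE; adjusted p = 2.95e-05) without overlap. Members of these gene families have similar sequences, and how far the probe sets tell them apart was not tested. The rise did not extend to the whole pathway. Of 29 genes of glutathione synthesis, recycling and transfer, 6 rose and 5 fell, where 4.68% of all genes rose and 31.6% fell. The median change of the 29 was -0.06. The 5 falls became 1 without rats 266, 269, 217 or 221, 2 without rats 265 or 219, 3 without rat 268 and 8 without rat 222. The split within this list moved with centring: 9 rose and 0 fell when each array was centred on the median of the genes tested.

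Akr1b8, an aldo-keto reductase that reduces reactive aldehydes, had log2 signals of 9.61, 9.54, 9.37, 9.49 and 9.20 at 5 ppm and 10.36, 10.49, 10.59, 10.53 and 10.65 at 200 ppm. It rose by 1.08 ± 0.14 (SE; 2.12-fold; limma adjusted p = 4.54e-06), and the lowest rat at 200 ppm exceeded the highest at 5 ppm. Pir, which encodes the iron-binding nuclear protein pirin, was at 8.42, 8.57, 8.60, 8.60 and 8.48 at 5 ppm and at 9.15, 9.18, 9.31, 9.20 and 9.50 at 200 ppm. It rose by 0.74 ± 0.09 (SE; adjusted p = 4.54e-06) with a clear gap between the groups. Nqo1, the quinone reductase that serves as a standard marker of NRF2 activity, went from 11.40 ± 0.15 to 11.90 ± 0.12 (SD, n = 5 each; change 0.50, adjusted p = 0.00124). Srxn1, the sulfiredoxin that repairs oxidised peroxiredoxins, went from 7.43 ± 0.24 to 8.28 ± 0.19 (change 0.85, adjusted p = 0.000538). Txnrd1, the cytosolic thioredoxin reductase, moved least of these at 0.26 ± 0.07 (SE; adjusted p = 0.00901). Me1, the malic enzyme that makes NADPH, rose by 0.31 (adjusted p = 0.00453). Nqo1, Srxn1, Txnrd1 and Me1 each had all 5 rats at 200 ppm above all 5 at 5 ppm. Hmox1, the haem oxygenase that is a target of NRF2 and of other stress factors, did not pass the test: it was at 9.26 ± 0.23 at 5 ppm and 9.40 ± 0.34 at 200 ppm (SD, n = 5 each; change 0.14 ± 0.14, SE; adjusted p = 0.421), and rat 217 at 9.67 was among the highest of all 10 rats.

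The calls for Gclc, Gclm, Gsta1, Gsta3, Akr1b8, Pir, Nqo1, Srxn1 and Txnrd1 were kept under each of the 24 alternatives tried on them, including each rat left out in turn. These are the genes called with OD260 as a covariate, so that alternative could not go against them. All the alternatives draw on the same rats. Gclc ranged from 0.72 to 0.93 over these alternatives and Akr1b8 from 1.02 to 1.41. With OD260 as a covariate Gclc rose by 0.93 (limma adjusted p = 1.90e-05), and with the between-array score as a covariate by 0.75 (adjusted p = 1.01e-06). Of the 13 NRF2 targets called, 8 were called with OD260 as a covariate.

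Group means of Gclc, Gsta3 and Akr1b8 stood in order of concentration at 5 days, while those of Nqo1 and Txnrd1 did not: against 5 ppm, Nqo1 was 0.24 higher at 30 ppm and 0.22 higher at 90 ppm, and Txnrd1 changed by -0.03 and 0.10. Gclc averaged 8.69 ± 0.07 at 5 ppm, 8.95 ± 0.19 at 30 ppm, 9.07 ± 0.12 at 90 ppm and 9.43 ± 0.05 at 200 ppm (SD, n = 5 each). Gsta3 averaged 7.13 ± 0.18, 7.87 ± 0.50, 8.02 ± 0.33 and 8.51 ± 0.17 at the same concentrations, and the 30 and 90 ppm rats overlapped. Akr1b8 averaged 9.44 ± 0.16, 9.92 ± 0.42, 9.93 ± 0.07 and 10.53 ± 0.11, with 30 and 90 ppm not separable. Against 5 ppm, Gclc was 0.39 higher at 90 ppm (limma adjusted p = 0.00884), while at 30 ppm 0 genes of all those tested passed the threshold (1477 had an unadjusted p under 0.05). These contrasts share the 5 ppm rats.

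**Figure D2:**
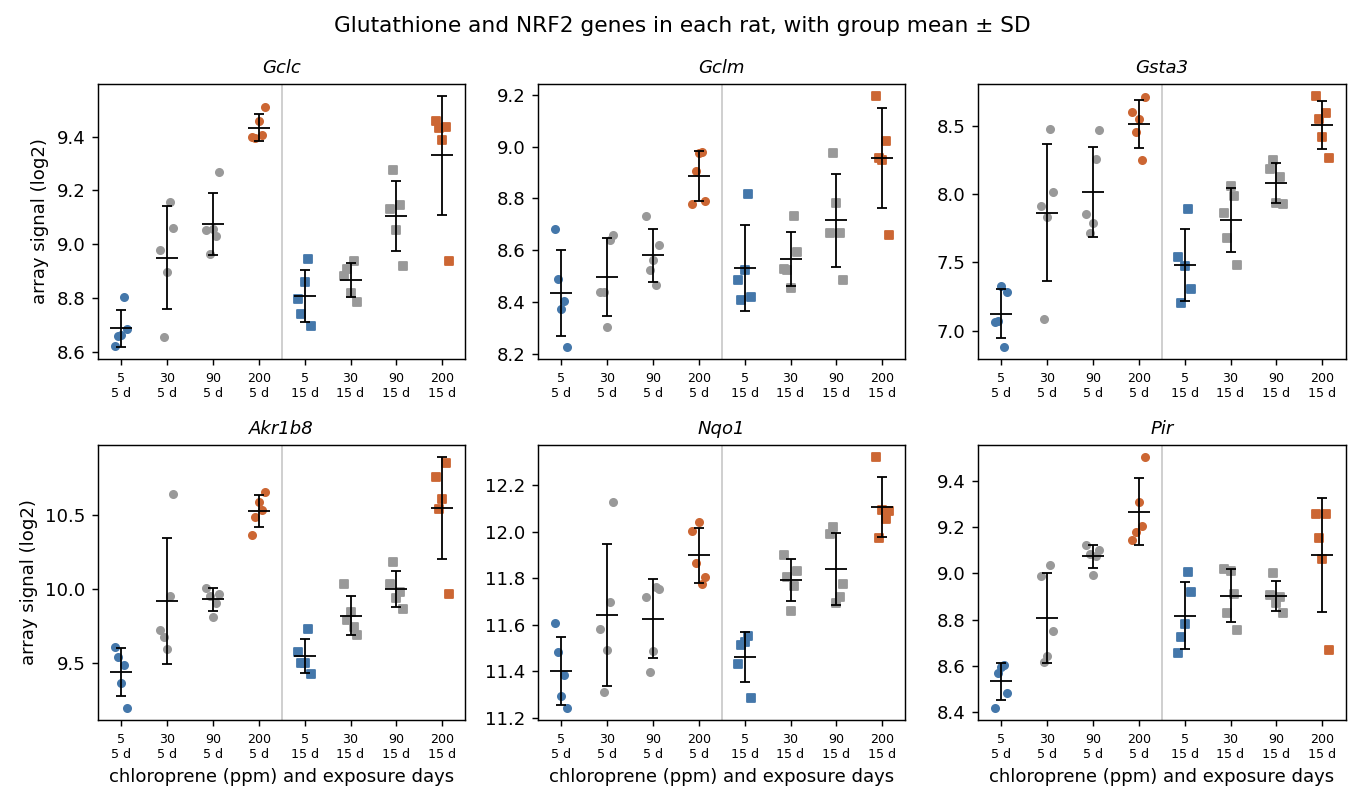
Log2 array signal of Gclc, Gclm, Gsta3, Akr1b8, Nqo1 and Pir in each rat by chloroprene concentration (5, 30, 90 or 200 ppm), after 5 exposure days (circles, left) and 15 exposure days (squares, right), with group mean and SD (n = 5). At 5 days all 5 rats at 200 ppm lie above all 5 at 5 ppm in each panel.

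After 15 exposure days, in other rats, 12 of the 30 NRF2 targets were higher at 200 than at 5 ppm and 0 were lower, where 0.5% of all genes were called higher. The 15-day calls were not stable. Of all genes 90 were called at that time, but 0 when those 10 arrays were fitted alone, so none of the 12 was called there. The count of all genes was 3 with the 3' minus 5' difference of control probe sets as a covariate and 15 without rat 225. Gclc was 0.52 higher (limma adjusted p = 0.00086), Gsta3 1.03 higher, Akr1b8 1.00 higher, Nqo1 0.64 higher and Gclm 0.43 higher at that time. A test of the difference between the 2 times did not pass for Gclc (0.22, adjusted p = 0.134), Gsta3, Akr1b8, Nqo1 or Gclm. Pir passed that test: its change was 0.47 larger at 5 days than at 15 days (adjusted p = 0.0347), where it was 0.26 (adjusted p = 0.133). That call is not stable, since 0 of all genes passed the test of the 2 times without rat 217, without rat 269 or with OD260 as a covariate.

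Enzymes that oxidise foreign compounds rose in part. Of 27 tested, 8 rose (4 without rat 217 and 5 without rat 269) and 1 fell, where 4.68% of all genes rose and 31.6% fell. The median of the 27 was 0.08. Fmo2, a flavin-containing monooxygenase of the lung, had log2 signals of 9.69, 10.51, 10.74, 10.80 and 11.57 at 5 ppm and 11.95, 12.01, 11.73, 12.07 and 12.64 at 200 ppm. The 5 ppm rats were widely spread, rat 217 lowest and rat 222 highest, and lay just below the 200 ppm rats (change 1.42 ± 0.29, SE; limma adjusted p = 0.00106). It was 1.17 without rat 217 and 1.64 without rat 222. Aldh1a1, a retinaldehyde dehydrogenase abundant in club cells, went from 12.63 ± 0.11 to 13.12 ± 0.10 (SD, n = 5 each; adjusted p = 5.30e-05) without overlap. Cyp1b1, a P450 induced through the aryl hydrocarbon receptor, went from 7.48 ± 0.18 to 8.03 ± 0.06 (adjusted p = 0.000468), and Ahr, the receptor itself, from 6.68 ± 0.47 to 7.56 ± 0.20 (adjusted p = 0.00566). Aox1, an aldehyde oxidase, rose by 0.38 (adjusted p = 0.00598). Cyp2e1 oxidises small molecules such as chlorinated solvents and is among the P450s that act on chloroprene. It was at 9.30, 9.55, 9.0, 9.41 and 9.29 at 5 ppm and at 9.63, 9.52, 9.60, 9.76 and 9.64 at 200 ppm. The groups overlapped through rats 219 and 266, and its change of 0.32 ± 0.13 (SE; adjusted p = 0.0491) was close to the threshold and lost the call when any of the 10 rats except rat 219 was left out. Cyp2f4, the rat P450 of the 2F subfamily found in club cells, did not pass (0.88 ± 0.38, SE; adjusted p = 0.0674), although it did without rats 268 or 222 (1.08 and 1.06), nor did Ephx1, microsomal epoxide hydrolase (0.25 ± 0.12, SE; adjusted p = 0.105). None of these oxidation enzymes was called with OD260 as a covariate.

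The lung label was borne out by the array: Sftpc, the surfactant protein that defines alveolar type 2 cells, was at 15.04 ± 0.01 and 15.06 ± 0.03 (SD, n = 5 each), and Scgb1a1, the secretoglobin that defines club cells, at 14.97 ± 0.04 and 15.11 ± 0.03. Both lie near the top of the scale, where the highest value of any probe set was 15.14, so their differences may be compressed. Of 13 club cell genes tested, 7 rose, where 4.68% of all genes did, and 0 fell, with a median of 0.49. They include Gsta3, Fmo2, Aldh1a1 and Aox1, which also stand in the lists above. Scgb1a1 itself rose by 0.14 ± 0.04 (SE; limma adjusted p = 0.00715). Scgb3a1, another secreted airway protein, was at 10.51, 10.97, 9.22, 9.10 and 9.83 at 5 ppm and at 12.90, 10.74, 12.88, 11.48 and 12.64 at 200 ppm. Rat 266 at 10.74 lay within the 5 ppm range and the other four 200 ppm rats above it (change 2.20 ± 0.66, SE; adjusted p = 0.0127). The mean log2 signal of the 13 club cell genes per rat ran from 10.22 to 10.71 at 5 ppm and from 10.88 to 11.30 at 200 ppm. Arrays of bulk tissue cannot tell a larger share of club cells from more RNA of these genes per cell, here or for any cell type below. Bpifb1, a secreted airway defence protein, rose by 1.25 (adjusted p = 0.0451) with overlap, a call lost without rats 265, 267, 269, 217, 220 or 221, while 2 of 10 mucous cell genes fell. With OD260 as a covariate Gsta3 alone of the club cell genes was called.

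Genes of the alveolar surface were called lower at shares near that of all genes. Of 19 type 2 cell genes, 0 rose and 8 fell (5 without rat 217), near the 31.6% of all genes that fell, with a median of -0.09. Abca3, the lipid pump of lamellar bodies, went from 12.07 ± 0.22 to 11.70 ± 0.04 (SD, n = 5 each; limma adjusted p = 0.00301). Lpcat1, which makes surfactant phosphatidylcholine, fell by 0.42 (adjusted p = 0.00166), and Nkx2-1, the lung epithelial transcription factor, fell by 0.30 (adjusted p = 0.00396). Of 16 type 1 cell genes 4 fell and 0 rose, with a median of -0.08, where the median of all genes was -0.14. With arrays centred on the median of the genes tested, 5 type 2 genes fell and 2 rose, and 3 type 1 genes fell. The medians of the 2 lists were then 0.02 and 0.03. With OD260 as a covariate 0 genes of either list were called. Aqp5, a water channel, fell by 0.37 (adjusted p = 0.0017), and Igfbp2, a binding protein for insulin-like growth factors, fell by 0.70 (adjusted p = 0.00252). Ciliated cell genes went both ways, 4 of 25 higher and 2 lower, where 4.68% of all genes were called higher. The 4 became 0 without rats 269, 217 or 221, 1 without rat 265, 2 without rat 219 and 8 without rat 222. Ccno, a regulator of centriole amplification, fell by 0.58 (adjusted p = 0.01), and Tekt2, a protein of ciliary microtubules, fell by 0.40 (adjusted p = 0.0127, and 0.0776 without rat 217). Ak7, a ciliary adenylate kinase, rose by 0.57 (adjusted p = 0.0247), and Dynlrb2, a dynein light chain, rose by 0.39 (adjusted p = 0.0291). Both calls were lost without rats 269, 217 or 221, and that of Dynlrb2 also without rats 265 or 267.

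Genes of the mesothelium, the cell layer that covers the lung, had the lowest median of the lists with at least 6 genes tested. Of 18 mesothelial genes tested, 14 fell and 0 rose, against 31.6% of all genes, with a median of -0.45. Wt1, a transcription factor of mesothelial cells, had log2 signals of 8.37, 7.79, 7.74, 8.41 and 7.30 at 5 ppm and 6.99, 6.55, 6.90, 6.75 and 6.13 at 200 ppm. The groups did not overlap, rat 222 being lowest at 5 ppm, and Wt1 fell by 1.26 ± 0.22 on the log2 scale (SE; limma adjusted p = 0.00032). Upk1b, a uroplakin of the mesothelial surface, was at 11.09, 10.57, 10.71, 11.09 and 10.53 at 5 ppm and at 9.72, 9.62, 9.72, 9.60 and 9.26 at 200 ppm (fell by 1.21, adjusted p = 0.000307). Bnc1, a zinc finger factor, fell by 1.72 (adjusted p = 0.00027), Lrrn4, a leucine-rich repeat membrane protein, by 1.15 (adjusted p = 0.00023) and Msln, mesothelin, by 1.09 (adjusted p = 0.00052), all without overlap. Aldh1a2, a retinoic acid making enzyme that mesothelium also expresses, fell by 1.12 (adjusted p = 0.00022). The mean log2 signal of the 18 genes ran from 9.95 to 10.40 per rat at 5 ppm and from 9.41 to 9.65 at 200 ppm. The mesothelial count was 9 without rat 217, 11 with the between-array score as a covariate and 0 with OD260 as a covariate, where Wt1 was 0.63 lower. How much surface tissue each lung sample held was not measured, and its part in the result was not tested. At 15 days 0 of the 18 genes differed, where 0.817% of all genes did and 0.318% were lower, so a count of 0 is near that share. The mean signal then ran from 9.78 to 10.21 at 5 ppm and from 9.90 to 10.04 at 200 ppm.

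Some red cell genes were lower as well. Of 13 tested, 8 fell and 0 rose, where 31.6% of all genes fell, with a median of -0.41. Alas2, the first enzyme of haem synthesis in red cell precursors, was at 10.86, 10.77, 10.61, 10.65 and 10.39 at 5 ppm and at 9.25, 10.26, 9.39, 9.48 and 8.83 at 200 ppm. Rat 266 came closest to the 5 ppm rats, and the fall was 1.21 ± 0.24 (SE, log2; limma adjusted p = 0.00089). Ahsp, the chaperone of alpha globin, was at 9.54, 8.82, 8.38, 9.0 and 8.25 at 5 ppm and at 7.55, 7.90, 7.86, 7.63 and 7.33 at 200 ppm (fell by 1.14, adjusted p = 0.000307). Bpgm, the enzyme that makes the bisphosphoglycerate of red cells, fell by 0.64 (adjusted p = 0.0019). Hbb, beta globin, was near the top of the scale at 14.78 ± 0.04 and 14.53 ± 0.18 (SD, n = 5 each; adjusted p = 0.0057). Their mean signal ran from 9.55 to 9.89 per rat at 5 ppm and from 9.12 to 9.47 at 200 ppm. Blood left in the vessels was not measured, and its part was not tested. The red cell count was 5 without rat 217 and 0 with OD260 as a covariate.

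Heart muscle genes were among the largest rises. Of 20 tested, 8 rose and 0 fell, where 4.68% of all genes rose and 31.6% fell, with a median of 0.49. Of the 42 listed genes 39 are named on the array, and those of them not tested did not pass the filter on low signal. The count and the median therefore describe only heart muscle genes with enough signal in some of the rats. Myh6, the alpha myosin heavy chain of the atrium, was at 6.58, 5.39, 5.87, 5.88 and 5.72 at 5 ppm and at 8.70, 5.91, 8.55, 9.11 and 8.81 at 200 ppm. All 5 values at 5 ppm lay below the filter level of 6.65, so Myh6 was tested only because other rats exceeded it. Rat 266 lay with the 5 ppm rats while the other four 200 ppm rats stood far above them. Myl7, the atrial myosin light chain, showed the same split, with rat 266 at 5.28 and the other four between 8.67 and 9.37, against 4.54 to 6.71 at 5 ppm. Its call (limma adjusted p = 0.0192) was lost without rats 268 or 219. Myh6 rose by 2.33 ± 0.69 (SE; limma adjusted p = 0.0121) and by 2.90 (adjusted p = 0.00526) without rat 266. Tnni3, cardiac troponin I, rose by 1.17 (adjusted p = 0.0068), Tcap, a cap protein of titin, by 0.96 (adjusted p = 0.011) and Sln, the atrial regulator sarcolipin, by 0.69 (adjusted p = 0.0068), and in Tnni3, Sln and Tcap rat 266 was again the lowest of its group. Heart muscle sleeves surround the large pulmonary veins in rodents. The mean signal of the 20 genes ran from 7.16 to 7.51 per rat at 5 ppm and from 7.16 to 8.17 at 200 ppm. At 15 days Myh6 was as variable, at 7.06 ± 1.33 at 5 ppm and 8.04 ± 1.46 at 200 ppm (SD, n = 5 each), and did not pass (adjusted p = 0.458). The amount of vein tissue per sample was not measured, and its part was not tested.

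**Figure D3:**
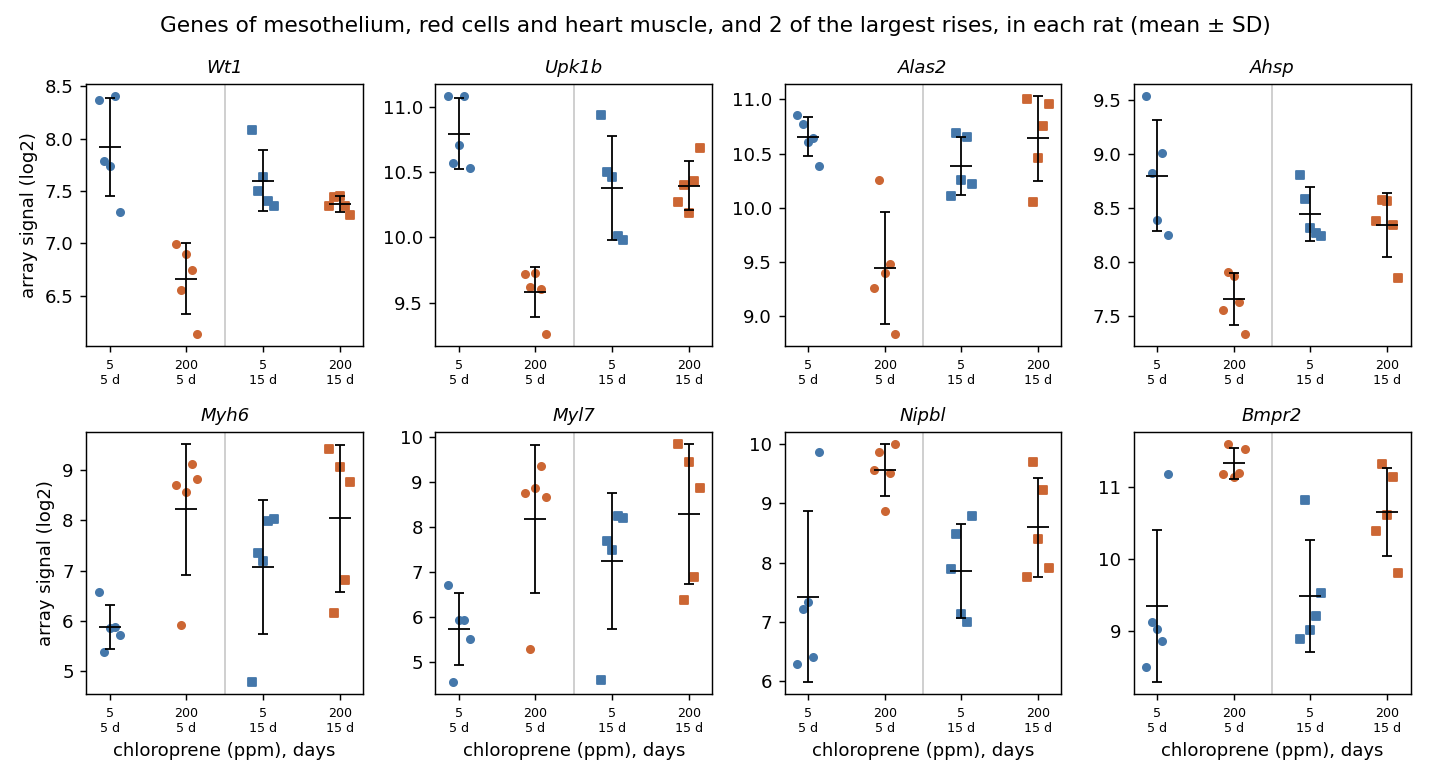
Log2 array signal in each rat at 5 and 200 ppm, after 5 exposure days (circles) and 15 exposure days (squares), with group mean and SD (n = 5), for Wt1 and Upk1b (mesothelium), Alas2 and Ahsp (red cells), Myh6 and Myl7 (heart muscle) and Nipbl and Bmpr2 (among the largest rises). Rat 266 lies low in Myh6 and Myl7 at 5.91 and 5.28, and rat 222 lies high in Nipbl and Bmpr2 at 9.86 and 11.19.

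Most of the other large rises shared a pattern in which rat 222 of the 5 ppm group stood with the 200 ppm rats. Nipbl, the cohesin loading factor, was at 6.29, 7.21, 7.34, 6.40 and 9.86 at 5 ppm and at 9.57, 9.87, 8.87, 9.51 and 10.00 at 200 ppm. Bmpr2, the type II receptor for bone morphogenetic proteins, was at 8.50, 9.13, 9.03, 8.86 and 11.19 at 5 ppm and at 11.18, 11.61, 11.14, 11.20 and 11.53 at 200 ppm. In both genes rat 222 was inside the 200 ppm range. Nipbl rose by 2.14 ± 0.44 (SE; limma adjusted p = 0.00112) and by 2.75 without rat 222, and Bmpr2 by 1.99 ± 0.34 (adjusted p = 0.000277) and by 2.45 without it. Xist, the RNA that silences an X chromosome in females, rose by 2.64 ± 0.47 (adjusted p = 0.000372), from 8.19, 10.04, 9.96, 8.68 and 12.28 to 12.37, 12.64, 12.28, 12.42 and 12.62. Rat 222 lay level with the lowest 200 ppm rat, and the rise was 3.25 without it and 2.23 without rat 217. All rats are female, and the 3 other Xist probe sets that passed the filter changed by 0.56 to 0.73. Probe sets of Nipbl and Ccar1 also disagreed: the others changed by 0.74 and 1.93 in Nipbl and by 0.57 and 0.60 in Ccar1, where the one used gave 1.97. Sv2b, Zdhhc20, Tmed5, Ro60, Arid4a, Arhgap5 and Cped1 rose by 1.72 to 2.20. Tbc1d12, which encodes a protein with a domain that acts on Rab GTPases, rose by 1.76 ± 0.26 (adjusted p = 5.30e-05) with no overlap and was 1.70 higher at 15 days. Its mean of 5.27 at 5 ppm lay below the filter level of 6.65, as did those of Tmed5 (5.59), Arhgap5 (5.87) and Ro60 (6.29). Across the 11010 genes, the change from 5 to 200 ppm followed the weight of each gene in the between-array score (Pearson r = 0.739 over genes, which are not independent replicates). Of the 515 genes called higher 392 had a positive weight, and of the 3477 called lower 192 did. With that score as a covariate 2733 genes were called, 489 higher and 2244 lower, 2055 of them among the 3992. What the score stands for was not tested.

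Of the other large falls, Slc7a9, a light chain of amino acid transporters, was at 7.75, 7.53, 7.50, 8.20 and 7.20 at 5 ppm and at 5.68, 5.77, 5.61, 6.05 and 5.55 at 200 ppm. It fell by 1.91 ± 0.26 on the log2 scale (SE; limma adjusted p = 2.79e-05), with a wide gap between the groups. All 5 of its values at 200 ppm lay below the filter level of 6.65, and how well the arrays measure the size of a change there was not tested. Prph, the neuronal filament protein peripherin, Stmn2, a stathmin of nerve cells, Inhca, Chst4, Slc13a4, Mest and Calml3 fell by 1.12 to 1.45, each without overlap. The 15 genes with the largest falls all showed separate groups, where 13.5% of all genes lay wholly below. They were picked by size of fall among the genes called in this same comparison, so their separation is no added evidence. Mean signals at 200 ppm also lay below the filter level of 6.65 for Bnc1 (5.37), Chst4 (5.99), Mest (6.46) and Prph (6.60).

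Stromal and vessel genes changed in part, where 4.68% of all genes were called higher and 31.6% lower. Among 38 fibroblast and matrix genes 7 rose and 4 fell, with a median of 0.05. Without rats 217, 269 or 266 the rises were 2, 3 and 4, and without rat 222 the falls were 8. Dcn, the collagen-binding proteoglycan decorin, was at 10.51, 11.14, 11.26, 11.20 and 11.72 at 5 ppm and at 12.38, 12.24, 12.24, 12.12 and 12.33 at 200 ppm. It rose by 1.09 (limma adjusted p = 0.00047) without overlap. Pdgfra, the growth factor receptor of lung fibroblasts, rose by 0.64 (adjusted p = 0.00047), and Col14a1, a collagen found on fibril surfaces, fell by 0.78 (adjusted p = 0.000307). Myh11, the smooth muscle myosin, rose by 0.76 (adjusted p = 0.00089), and 4 of 21 smooth muscle genes rose (2 without rat 269) and 1 fell. Postn, the matrix protein periostin, rose by 0.80 (adjusted p = 0.024), a call lost without rats 269 or 217. Of 34 endothelial genes 6 rose and 0 fell. Lyve1, the hyaluronan receptor of lymphatic vessels, rose by 0.79 (adjusted p = 0.0014), Erg, an endothelial transcription factor, by 0.94 (adjusted p = 0.0015) and Tek, the angiopoietin receptor, by 0.38 (adjusted p = 0.0052). With OD260 as a covariate 0 genes of these 3 lists were called.

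Genes of cholesterol synthesis were mostly lower, by small amounts, while counts for other lipid and energy genes lay nearer the 31.6% of all genes that fell. Of 20 genes of cholesterol synthesis 14 fell and 0 rose, with a median of -0.34. Srebf2, the transcription factor that drives the pathway, fell by 0.39 (limma adjusted p = 0.0029), and Ebp, a sterol isomerase, was at 9.21, 9.03, 8.77, 8.96 and 8.83 at 5 ppm and at 8.50, 8.63, 8.71, 8.44 and 8.44 at 200 ppm. Rat 267 in the high group and rat 220 in the low group nearly met in Ebp, which fell by 0.42 (adjusted p = 0.0034). The count for cholesterol synthesis was 5 without rat 217, 9 with centred arrays and 0 with OD260 as a covariate. Of 18 genes of fatty acid synthesis 8 fell (2 without rat 217, 4 without rat 269 and 5 without rats 266 or 219) and 1, Me1, rose, and Scd, the desaturase, fell by 0.56 (adjusted p = 0.011). Of 26 genes of fatty acid oxidation and PPAR targets 7 fell (3 without rat 217 and 11 without rat 222) and 3 rose (0 without rats 269 or 217 and 1 without rats 265, 268, 219, 220 or 221), and Plin2, a lipid droplet coat protein, fell by 0.42 (adjusted p = 0.0048), as did Angptl4, an inhibitor of lipoprotein lipase, by 0.70 (adjusted p = 0.01, and 0.066 without rat 217). Of 36 subunits of oxidative phosphorylation 17 fell (7 without rat 217 and 11 without rat 269) and 0 rose, with a median of -0.21, and 6 fell with centred arrays. Ndufv2, a subunit of complex I, fell by 0.35 (adjusted p = 0.0029). Ribosomal protein genes changed little, 1 of 19 lower and 0 higher. Cidec, a lipid droplet protein of fat cells, fell by 0.62 (adjusted p = 0.0026), and 4 of 10 adipose genes fell (2 without rat 217).

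Cell cycle genes were called lower at a share near that of all genes (31.6%). Of 42 tested 17 fell (5 without rat 217, 9 without rat 268 and 11 without rats 269 or 219) and 3 rose (0 without rat 217), with a median of -0.20. Cdk1, the kinase that starts mitosis, was at 8.34, 8.42, 8.21, 7.81 and 7.97 at 5 ppm and at 7.70, 7.48, 7.48, 7.51 and 7.49 at 200 ppm. It fell by 0.62 ± 0.13 (SE; limma adjusted p = 0.0012) without overlap. Cks2, a partner of that kinase, fell by 0.57 (adjusted p = 0.0014) and was 0.59 lower at 15 days, and Aurka, a spindle kinase, fell by 0.48 (adjusted p = 0.0026). The count of cell cycle genes that fell was 6 with centred arrays and 0 with OD260 as a covariate. DNA repair genes, 8 of 30 lower (1 without rat 217, 3 without rats 266 or 268 and 5 without rats 219 or 221) and 0 higher, were near the share of all genes that fell, and Apex1, the endonuclease that cuts at abasic sites, fell by 0.45 (adjusted p = 0.0054). Of 19 p53 targets 3 rose, where 4.68% of all genes did, and 3 fell (0 without rat 217). Mdm2, the ligase that degrades p53, rose by 0.32 (adjusted p = 0.0072), Tp53inp1 by 0.48 (adjusted p = 0.0068) and Gadd45a, a growth arrest gene, by 0.43 (adjusted p = 0.013, and 0.0616 without rat 217). Cdkn1a, the p53-induced inhibitor of cell division, did not pass, at 9.88 ± 0.17 and 9.73 ± 0.10 (SD, n = 5 each; adjusted p = 0.212).

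Stress genes were called lower at shares near the 31.6% of all genes, and clock genes went both ways. Heat shock chaperones were lower in 7 of 19 (11 without rat 222) and higher in 0, with Hspe1, a mitochondrial chaperonin, lower by a change of -0.30 (limma adjusted p = 0.0017). Genes of endoplasmic reticulum stress were lower in 8 of 23 (3 without rats 266, 269 or 217, 4 without rats 219 or 221 and 5 without rat 265), and Pdia4, a protein disulfide isomerase, fell by 0.49 (adjusted p = 0.00071). Hypoxia targets were lower in 7 of 19 (3 without rat 217 and 4 without rats 269, 219 or 221), and Egln1, the oxygen-sensing prolyl hydroxylase, fell by 0.57 (adjusted p = 0.00097), although another probe set for it changed by -0.02. With arrays centred on the median of the genes tested, 3 heat shock, 3 endoplasmic reticulum and 1 hypoxia gene were lower. Of 17 clock genes 5 rose (1 without rat 217), where 4.68% of all genes did, and 3 fell. Npas2 and Bmal1, partners in the activating arm of the clock, fell by 0.75 (adjusted p = 0.00069) and 0.68 (adjusted p = 0.0061). Rora, a nuclear receptor that activates Bmal1, rose by 1.26 (adjusted p = 0.0073), with rat 222 at 8.55 among the 200 ppm rats. Its rise was 1.68 without rat 222 and 0.94 without rat 217, where it did not pass (adjusted p = 0.0533), and Hlf, a clock output factor, rose by 0.30 (adjusted p = 0.009). Per1 was above all 5 low rats in every high rat but did not pass (0.25, adjusted p = 0.246). The hour at which each rat was killed is not given in the sources used here. Of 17 glucocorticoid-induced genes 1 rose and 1 fell. Klf9 rose by 0.59 (adjusted p = 0.026), a call lost without rats 266, 268, 269, 217 or 219, and Fkbp5, the most used marker of that hormone, did not pass (0.64 ± 0.44, SE; adjusted p = 0.229).

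Immune genes were called lower at shares below the 31.6% of all genes in the fit as reported. Few were called higher, where 4.68% of all genes were. Of 28 T and natural killer cell genes 1 rose, Il7r, the interleukin-7 receptor (0.79, limma adjusted p = 0.022, lost without rats 266, 217 or 219), and 1 fell. Of 13 B and plasma cell genes Pou2af1, a B cell coactivator, fell by 0.64 (adjusted p = 0.012) and 1 rose, and both calls were lost without rat 217. Of 8 neutrophil genes 1 fell and 0 rose. Monocyte and interstitial macrophage genes were lower in 5 of 19 (1 without rat 217, 2 without rat 269 and 3 without rats 265, 266, 219 or 221) and higher in 1, led by Csf1r, the growth factor receptor of these cells, which fell by 0.47 (adjusted p = 0.0009). Alveolar macrophage genes were lower in 4 of 20 (2 without rat 217) and higher in 1, and Cd68, a lysosomal protein of macrophages, fell by 0.47 (adjusted p = 0.013, and 0.0763 without rat 217). Of 9 genes of MHC class II presentation 2 fell (between 1 and 5 with single rats left out) and 0 rose, with a median of -0.16. Ctss, a protease of antigen presentation, was among them and fell by 0.33 (adjusted p = 0.0075). Among 29 interferon response genes 3 fell and 0 rose, with a median of -0.35. The falls became 1 without rats 265, 266, 269 or 217, 6 without rat 267, 16 without rat 222 and 17 without rat 268. Among them Rsad2, the antiviral protein viperin, was at 10.06, 9.68, 10.29, 9.73 and 9.39 at 5 ppm and at 8.55, 9.39, 9.16, 10.05 and 8.07 at 200 ppm, with rat 268 inside the low group's range (adjusted p = 0.0102, and 0.0524 without rat 269). Of 20 cytokine and chemokine genes 2 rose and 2 fell: Ccl11, the eotaxin that draws eosinophils, rose by 0.77 (adjusted p = 0.022) and Il33, an alarmin, by 0.49 (adjusted p = 0.042). Both calls were lost without rats 265, 266 or 217, that of Il33 also without rats 269, 219 or 221, and both falls were lost without rat 217. Of 32 immediate early genes 2 fell, Egr2 among them by 0.74 (adjusted p = 0.0049).

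**Figure D4:**
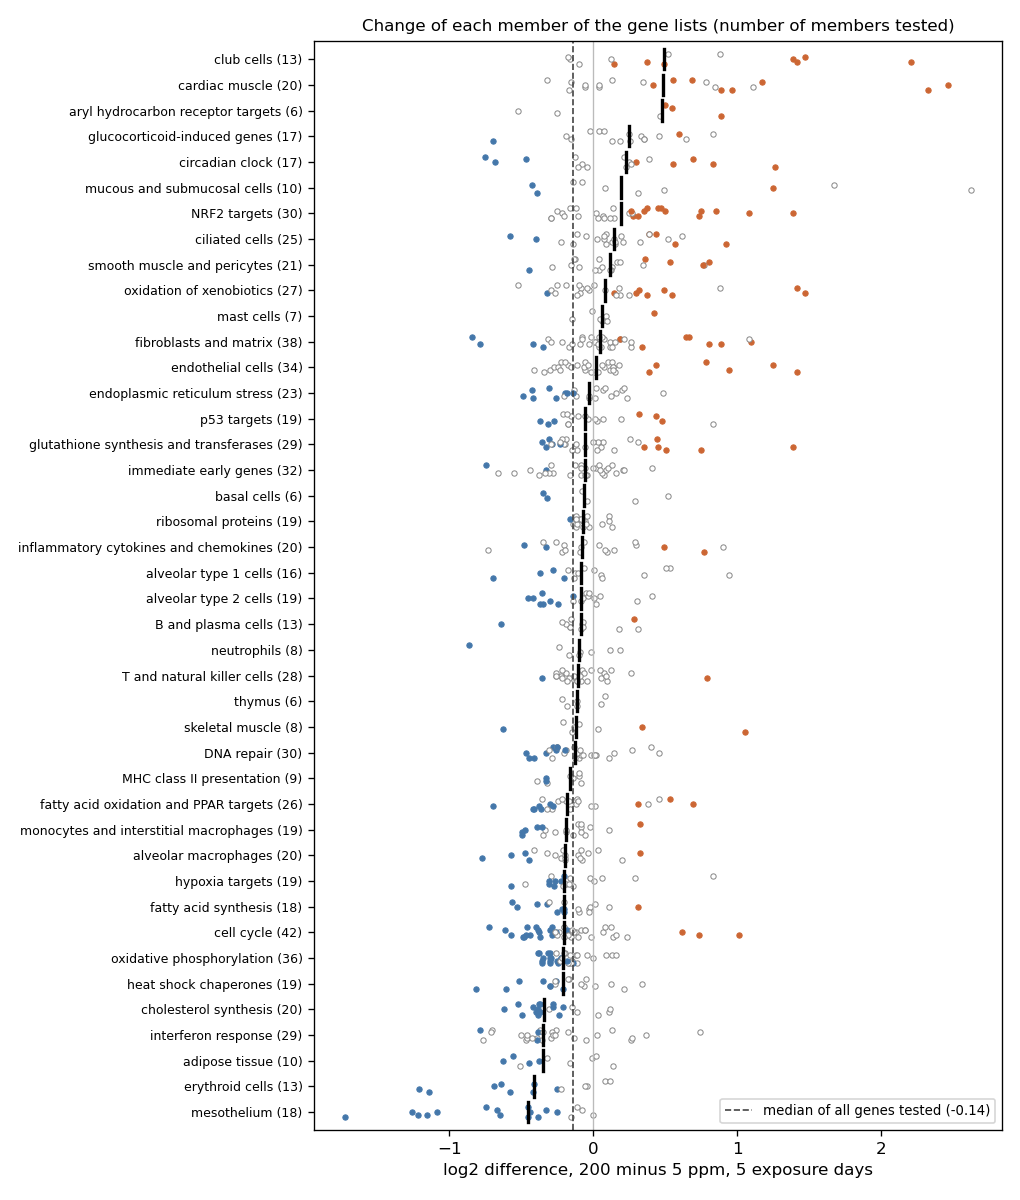
Log2 difference between 200 and 5 ppm at 5 exposure days for each member of the gene lists with at least 6 genes tested, filled where the limma adjusted p was under 0.05 (orange higher, blue lower) and open otherwise. Black bars mark each list's median and the dashed line the median of all genes tested (-0.14). Club cell and heart muscle genes lie highest, at 0.49 each, and mesothelial genes lowest, at -0.45.

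The 15-day comparison of 200 with 5 ppm, in other rats, gave 90 genes (0.817%), 55 higher and 35 lower, with 1972 at an unadjusted p under 0.05. The count was 0 when those 10 arrays were fitted alone, and with single rats left out it ran from 15 without rat 225 and 23 without rat 227, through 37 to 58 without rats 277, 280, 228 or 229, to 152 without rat 279 and 275 without rat 226. The change from 5 to 200 ppm differed between the times in 1259 genes (11.4%; limma, adjusted p under 0.05), 289 more positive and 970 more negative at 5 days, and in 464 genes (4.21%) by at least 1.5-fold. That count depended on single rats: it was 0 without rats 217 or 269 of the 5-day groups or rats 277, 227 or 229 of the 15-day groups, 1 without rat 282, between 22 and 29 without rats 266, 219, 221 or 225, then 433 and 530 without rats 265 or 268, 1893 and 1896 without rats 220 or 267, 3144, 3752 and 4172 without rats 228, 281 or 279, and 4707 without rat 222. It was also 0 with OD260, the RNA integrity number, the 3' minus 5' difference of control probe sets or the between-array score as a covariate. The genes of smallest p with a more positive change at 5 days were Myh11, Abca8a, Prom1, Pkd2 and Etfbkmt, and those with a more negative one were Avil, Pkp2, Camk2b, Mrps18c and Slc7a9. Slc7a9, for example, changed by -1.91 at 5 days and by -0.09 at 15 days (difference -1.81, adjusted p = 0.0302). Avil, an actin-severing protein, changed by -0.78 and -0.07 (difference -0.71, adjusted p = 0.0302), and Pkp2, a desmosomal protein, by -0.68 and 0.02.

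Between 200 and 90 ppm at 5 days 0 of the 11010 genes passed (limma; 439 had an unadjusted p under 0.05), and 41 did without rat 268. The 3 of smallest p were Rsad2 (-1.10 ± 0.23, SE), Chka, a choline kinase (-0.32 ± 0.07), and Sp110, a nuclear body protein induced by interferon (-0.40 ± 0.08), each with an adjusted p of 0.112. Against 5 ppm, 90 ppm gave 2598 genes, 455 higher and 2143 lower. At 90 ppm the changes from 5 ppm stood beside those at 200 ppm as follows for genes described above, with the 5 ppm rats shared: Gclc 0.39 and 0.75, Akr1b8 0.49 and 1.08, Gclm 0.15 and 0.45, Fmo2 0.92 and 1.42, Wt1 -0.85 and -1.26, Alas2 -0.94 and -1.21, Myh6 1.99 and 2.33, and Nipbl 2.26 and 2.14. None of the differences between 200 and 90 ppm passed, those of Akr1b8 at 0.60 (adjusted p = 0.136) and Gclc at 0.36 (adjusted p = 0.148) having the smallest p of these, so the order of the 2 highest concentrations was not resolved for any single gene.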

How the data were processed

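Lung RNA of 40 rats in 8 groups of 5 was measured on Affymetrix Rat230_2 arrays. The authors deposited 1 log2 signal per probe set and array, processed before deposit by a normalization method that is not given in the sources used here; the log2 scale was inferred from the range of the deposited values, 3.07 to 15.1. Of 31099 probe sets, 20826 have 1 gene symbol in the platform annotation, 436 several and 9780 none, and 57 are controls. Probe sets were kept where at least 5 of the 40 rat arrays exceeded the 40th percentile of all values (6.65), which left 15109 probe sets, and each gene was represented by 1 of them, the one with the highest mean, giving 11010 genes. Symbols follow the annotation and were not updated.

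Group means of all 40 rat arrays were fitted with limma 3.58.1 in R 4.3.3, with Benjamini-Hochberg adjustment over all genes and a threshold of 0.05. Array and RNA quality measures were compared by two-sided exact permutation tests. The labels number each animal, so each array is a separate rat. The scripts were tested on simulated data. Of 50 genes changed by 0.3 on the log2 scale 13 were recovered, and of 50 changed by 1, 48 were, with 12 false calls. The simulated spread was independent between genes. In the other 6 rat groups 1 shared axis, that of the between-array score, held 66.2% of the variance around group means. The simulation therefore does not cover variation that genes share.

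Genes named are the 15 largest rises and 15 largest falls among those called (leaving out symbols that start with LOC, RGD or MGC or end in Rik), up to 4 called members of each of 45 gene lists by smallest p, a fixed set of detoxification, marker and hormone genes, the 5 of smallest p in each direction for the difference between times, and the 3 of smallest p for 200 against 90 ppm. Msln and Srxn1, list members beyond that number, were named after their values were seen. Gsta2 and Mki67 of the fixed set were not analysed here. The comparison, the lists and the alternatives were chosen with earlier results of these data known. The between-array score, centring on the median, every probe set singly and leaving out rats 217 and 222 together were added after seeing the data. Precision is limited by the number of arrays, 5 a group. Mouse arrays were not used here.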

Additional observations from a re-analysis of the deposited data

Results flagged for a closer look

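Among 248 groups of 5 rats examined, made up of named genes and array measures, 20 held a rat whose gap to its nearest neighbour was over 0.71 of the group's range. Chance alone gives about 1 such group in 20. Rat 266 of the 200 ppm group was the lowest in Myl7 (5.28), Myh6 (5.91), Tnni3 (6.93), Sln (6.27) and Tcap (7.08), all heart muscle genes on the log2 scale, and the highest in Per1 (10.70). Rat 222 of the 5 ppm group was the highest in Tmed5 (7.41), Bmpr2 (11.19), Arhgap5 (7.77) and Tp53inp1 (7.14), and its OD260 of 4.244 stood apart from the other 5 ppm extracts. Rat 217 of the 5 ppm group was the highest in Hmox1 (9.67) and the lowest in Tek (11.66) and Mdm2 (9.74). In the 200 ppm group rat 269 was the lowest in Upk1b (9.26) and in the mean of the poly-A control probe sets added before labelling (7.85), and the highest in Pkd2 (10.42). Also at 200 ppm, rat 265 was the highest in Cdk1 (7.70), rat 267 the highest in Apex1 (9.61) and rat 268 the lowest in Mdm2 (10.05).

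For 51 named genes the change from 5 to 200 ppm differed between 5 and 15 exposure days by limma's test of that difference (adjusted p from 0.0302 to 0.0496). The values that follow are the log2 change at 5 days minus that at 15 days. The difference was positive for Fmo2 (1.62), Postn (1.42), Dcn (1.03), Myh11 (1.02), Ahr (0.96), Erg (0.94), Abca8a (0.88), Ak7 (0.85), Il33 (0.85), Prom1 (0.71), Pdgfra (0.62), Tek (0.61), Pkd2 (0.57), Etfbkmt (0.53), Pir (0.47) and Aldh1a1 (0.33). It was negative for Slc7a9 (-1.81), Calml3 (-1.74), Bnc1 (-1.49), Alas2 (-1.47), Prph (-1.40), Upk1b (-1.23), Inhca (-1.16), Slc13a4 (-1.15), Chst4 (-1.11), Lrrn4 (-1.10), Msln (-1.10), Stmn2 (-1.06), Ahsp (-1.04), Wt1 (-1.04), Mrps18c (-1.01), Aldh1a2 (-0.95), Igfbp2 (-0.84), Mest (-0.82), Scd (-0.77), Bpgm (-0.75), Camk2b (-0.71), Avil (-0.71), Pkp2 (-0.70), Ebp (-0.62), Col14a1 (-0.61), Egln1 (-0.52), Aqp5 (-0.52), Apex1 (-0.51), Plin2 (-0.50), Csf1r (-0.48), Abca3 (-0.42), Srebf2 (-0.40), Hbb (-0.33), Hspe1 (-0.29) and Chka (-0.29). These differences share the weakness of the whole comparison between times, in which 0 genes passed without rat 217 or with OD260 as a covariate.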

How the results depend on the processing

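The count of 3992 genes between 200 and 5 ppm at 5 days was within 1.5 times under no filter, the 60th percentile filter, quantile normalization, the mean of probe sets, the 3' minus 5' difference, the 5-day arrays alone, a variance trend, the 10 arrays alone and the between-array score. It moved to 2468 with the RNA integrity number (which drops rats 269 and 233, having none), 9 with OD260, 6434 with array weights, 2207 with centred arrays, 6299 with every probe set singly (1994 higher, 4305 lower), 2597 without rats 217 and 222, and 387 at 1.5-fold or more. It ran from 1389 to 5581 with single rats left out. The 15-day count of 90 became 148 with the mean of probe sets, 20 with the RNA integrity number, 3 with the 3' minus 5' difference, 2931 with array weights, 1289 with the between-array score, 229 with centred arrays, 673 with every probe set, 0 with the 10 arrays alone and 25 at 1.5-fold, and ran from 15 to 275 with single rats left out. The difference between times, 1259 genes, became 0 with the RNA integrity number, the 3' minus 5' difference, OD260, the between-array score or without rats 217 and 222, 4720 with array weights, 160 with every probe set and 464 at 1.5-fold, and ran from 0 to 4707. For 200 against 90 ppm the count of 0 became 1 with no filter or with the 10 arrays alone, 201 with array weights and 37 with the between-array score, and ran from 0 to 41. Of 119 named genes, 102 lost the call with OD260, 14 with the between-array score, 13 with the RNA integrity number and 16 without rat 217. One value changed sign: Sp110 changed by -0.24 between 200 and 5 ppm at 5 days, and by 0.011 in another probe set. The cause was not tested for any of these. No paired analysis was possible because each rat has its own number and the groups share none. With 5 arrays a group, the number of arrays limits what could be called.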
